A study of Mus musculus with 9 samples.

Results

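The immediate-early response genes were described here in hearts of mouse embryos at E18.5, late in gestation, that carried 0, 1 or 2 copies of a *Ctcf* allele coding for the R567W substitution. The 33 genes were listed by name as known immediate-early genes, by a rule that sets no threshold on their values but was written with earlier results of these data known, and all 33 were among the 24571 gene symbols used. Of these, 30 reached a mean of 1 TPM over the 9 libraries and were among the 13682 genes tested, while *Egr2*, *Egr3* and *Arc* stayed below this level. CTCF binds DNA through zinc fingers and anchors chromatin loops, and the allele had been made by CRISPR/Cas9 editing in C57BL/6N mice. The groups were wild type, heterozygous (*Ctcf* +/R567W) and homozygous (*Ctcf* R567W/R567W), with 3 heart libraries each, and the labels name no other treatment. The edited allele was carried in the germline and was not limited to a cell type.

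Immediate-early genes are genes that cells transcribe within minutes of a stimulus, from factors already present, without needing new protein. Growth factors, stretch, stress signals and tissue handling are known to induce them, and their transcripts decay quickly. Most code for transcription factors, such as the Fos and Jun proteins that form the dimer AP-1, and others code for phosphatases and RNA-decay factors that end the response, or for secreted matrix proteins. In heart muscle *Fos*, *Jun*, *Egr1* and *Atf3* are known as early markers of mechanical load and injury. Serum response factor binds the CArG box, and CREB binds the sequence TGACGTCA, in the promoters of many of these genes.

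Promoter sequence is shown for 7 of the genes, whose windows hold a searched motif outside annotated exons. The ratio of their highest to their lowest library ranges from 61.2 (*Fos*) to 1.77 (*Maff*). *Egr2*, whose windows also hold searched motifs outside annotated exons, is not shown, and no stretch shown holds a CArG box. The stretches come from RefSeq windows on build GRCm38.p6 (mm10), read 5′ to 3′ on the strand of the gene, and each one ends at, or lies within 250 bases before, a start site. Capitals mark TGACGTCA, its shorter form TGACGT on either strand (ACGTCA when reversed) and TATAAA.
Fos (chr12:85473804-85473889, forward strand): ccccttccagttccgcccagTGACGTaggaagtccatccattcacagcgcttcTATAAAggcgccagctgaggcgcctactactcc
Cyr61 (chr3:145649986-145650064, reverse strand): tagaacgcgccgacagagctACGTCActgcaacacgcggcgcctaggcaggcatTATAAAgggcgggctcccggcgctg
Dusp1 (chr17:26508578-26508683, reverse strand): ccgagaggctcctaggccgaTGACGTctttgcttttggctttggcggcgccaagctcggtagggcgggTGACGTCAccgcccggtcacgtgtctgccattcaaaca
Btg2 (chr1:134079284-134079341, reverse strand): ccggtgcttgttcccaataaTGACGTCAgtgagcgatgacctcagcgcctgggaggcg
Maff (chr15:79347471-79347519, forward strand): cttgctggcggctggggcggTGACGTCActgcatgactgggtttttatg
Gadd45g (chr13:51846628-51846674, forward strand): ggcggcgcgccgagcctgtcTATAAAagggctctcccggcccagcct
Gadd45b (chr10:80930025-80930072, forward strand): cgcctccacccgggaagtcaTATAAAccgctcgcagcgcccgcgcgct

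Among the 26 genes of the group that had a promoter window in the RefSeq table, the full TGACGTCA was found before 3 (*Btg2*, *Dusp1*, *Maff*), compared with 1.77% of the 27025 genes with a window and 3.01% of those tested. TGACGT, which also counts every full TGACGTCA, was found before 9, compared with 7.29% of all genes and 11.6% of tested genes. The 9 were *Fos*, *Atf3*, *Maff*, *Egr2*, *Nr4a3*, *Dusp1*, *Dusp5*, *Btg2* and *Cyr61*. The CArG box was found before *Egr2*, *Dusp5* and *Zfp36*, compared with 1.62% of all and 1.48% of tested genes. *Fosl1*, *Egr1*, *Egr3*, *Ier2*, *Myc*, *Ctgf* and *Arc* had no window and were not searched. Motifs more than 250 bases before a start were not searched for in any gene, so a gene not named here may still have one. TGACTCA, the AP-1 site, was found before 0 of the 26 genes, compared with 5.16% of all and 3.87% of tested genes, so that 0 among 26 is near these shares. TATAAA within the last 50 bases before the start, on the gene strand, was found before 4 (*Fos*, *Cyr61*, *Gadd45b*, *Gadd45g*), compared with 3.15% of all and 1.90% of tested genes. All motifs other than TATAAA were searched on both strands over 250 bases, and the searches for TATAAA and for the shorter TGACGT were added after the expression values had been seen. The 3 genes with TGACGTCA differed in how uneven they were among libraries. The ratio of the highest to the lowest library was 6.82 for *Dusp1*, 4.40 for *Btg2* and 1.77 for *Maff*. Of these, *Dusp1* also holds a separate TGACGT. The part of these motifs in the expression values was not tested.

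Expression was given as TPM, an abundance per transcript length with every library brought to the same total, so that levels of different genes can be compared. Totals were between 998179 and 998491 TPM in the 9 libraries, and 12946 to 14068 genes reached 1 TPM. TPM keeps no read depth, so counting error is unknown, and precision was judged from how far replicates of a genotype lay apart. Summed markers of cardiomyocytes, the contractile cells of the heart (10 genes), held 32814 to 48060 TPM, with no marker below 29.9 TPM in any library. *Ctcf* itself was between 27.0 and 50.2 TPM. Libraries differed in transcripts of other organs. In homozygous replicate 3, 10 thymocyte genes summed to 508 TPM, and to at most 2.5 TPM elsewhere, where *Rag2*, *Ptcra* and *Cd3d* were at 0 in most libraries. For 8 genes of airway and lung, wild-type replicate 1 held 264 TPM, heterozygous replicate 1 held 53.6 TPM, homozygous replicate 1 held 8.1 TPM and the others at most 3.27 TPM. For 8 liver genes, heterozygous replicate 1 held 2558 TPM and the others 5.63 to 48.4 TPM. *Xist* transcripts were present in wild-type replicate 1, in the 3 heterozygous libraries and in homozygous replicate 1, so that sex was not balanced between the groups.

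The genes were high in wild-type replicates 1 and 2 and low in wild-type replicate 3. The mean of their log2(TPM + 1) values, each centred on the 9 libraries, was 1.10, 0.93 and −0.34 in the wild-type libraries, 0.24, −0.34 and −0.34 in the heterozygous libraries, and −0.32, −0.51 and −0.42 in the homozygous libraries. The third wild-type library was thus level with heterozygous replicates 2 and 3 and with homozygous replicate 1, and heterozygous replicate 1 stood between. The same mean over all 13682 genes was −0.20, −0.19 and 0.02 in the wild-type libraries, so the high level of the group was not shared by genes at large. In bulk tissue, fewer cells of a type and less RNA per cell cannot be told apart.

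**Figure D1:**
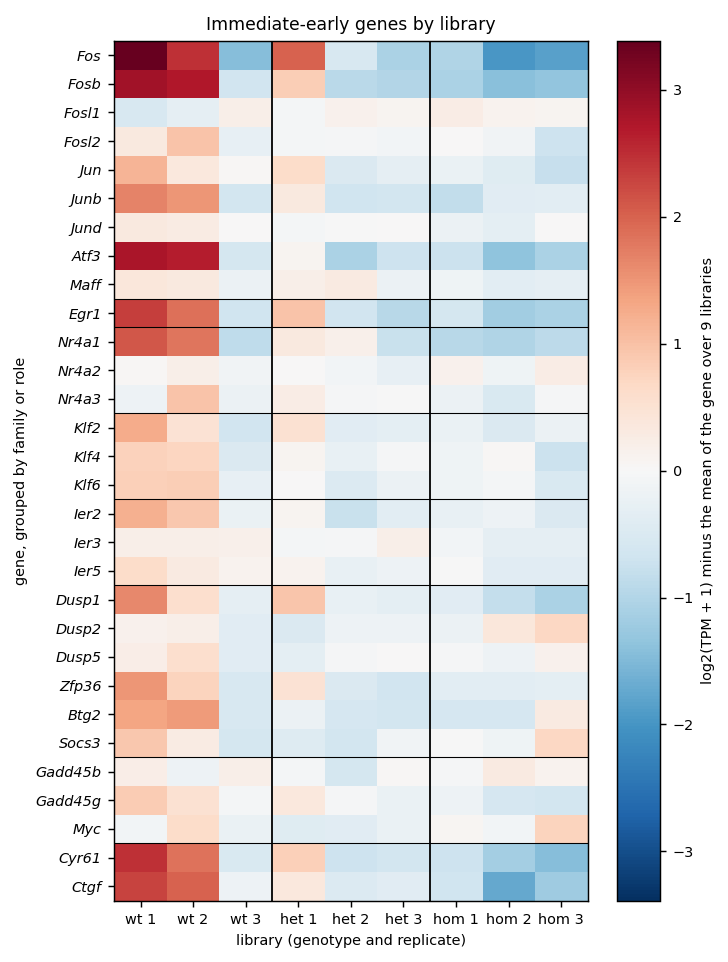
Heat map of the 30 tested immediate-early genes (rows, grouped by family or role) in the 9 libraries (columns, wild type, heterozygous and homozygous), coloured by log2(TPM + 1) minus the mean of the gene over the 9 libraries. Wild-type replicates 1 and 2 are red for most genes, heterozygous replicate 1 is red for *Fos*, *Egr1*, *Dusp1* and *Cyr61*, and wild-type replicate 3 is mostly blue, like the mutant libraries.

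Of the AP-1 genes, *Fos* (chromosome 12, 85473890 to 85477273, forward strand) was the most uneven in its family after *Fosb*. *Fos* held 120.0, 63.5 and 3.26 TPM in the wild type (replicates 1, 2 and 3, the order used throughout), 45.4, 6.94 and 4.51 TPM in heterozygotes and 4.75, 1.96 and 2.22 TPM in homozygotes. Wild-type replicate 3 lay within the homozygous range, and wild-type replicate 1 was 36.8 times as high as it. *Fosb* (chromosome 7, 19302696 to 19310051, reverse strand), a partner-forming relative of Fos whose values are given because they were seen to stand out, held 22.04, 20.2 and 1.06 TPM in the wild type, 4.75, 0.73 and 0.62 TPM in heterozygotes and 0.53, 0.21 and 0.29 TPM in homozygotes. Its wild-type and homozygous values did not overlap, although the third wild-type library was near the mutants. *Atf3* (chromosome 1, 191170296 to 191218039, reverse strand), a stress-induced bZIP factor, held 109, 101 and 9.74 TPM in the wild type, 16.3, 6.66 and 8.84 TPM in heterozygotes and 8.79, 5.26 and 6.65 TPM in homozygotes. Wild-type replicates 1 and 2 were more than 6 times as high as any mutant library.

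The Jun genes code for the other partners in AP-1. *Jun* held 106, 61.3 and 48.2 TPM in the wild type, 73.9, 33.7 and 38.3 TPM in heterozygotes and 40.6, 35.4 and 27.0 TPM in homozygotes. *Junb* held 34.0, 29.9 and 6.16 TPM, then 12.8, 5.86 and 6.14 TPM, and 5.20, 7.37 and 7.63 TPM in the same order. *Jund*, known as the least inducible Jun gene, held 114, 110 and 91.4 TPM in the wild type, 87.0, 89.97 and 91.3 TPM in heterozygotes and 78.6, 72.0 and 92.4 TPM in homozygotes. *Junb* therefore divided the wild-type libraries like *Fos*, whereas *Jund* differed by at most 1.58 times between any 2 libraries. *Maff*, a small Maf protein, held 13.8, 13.4 and 8.94 TPM in the wild type, 12.1, 13.0 and 8.85 TPM in heterozygotes and 9.33, 7.80 and 8.13 TPM in homozygotes. *Fosl2* was between 3.89 and 14.5 TPM, and *Fosl1*, between 0.47 and 1.56 TPM, was lowest in wild-type replicate 1.

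*Egr1* codes for a zinc-finger transcription factor downstream of MAP kinase signalling. It held 108, 77.5 and 12.4 TPM in the wild type, 41.0, 12.8 and 10.2 TPM in heterozygotes and 13.2, 8.51 and 9.24 TPM in homozygotes, with wild-type replicate 3 inside the homozygous range. Its relatives *Egr2*, 0.2 to 1.61 TPM, and *Egr3*, 0.4 to 1.87 TPM, were near the limit of the table, as was *Arc*, a cytoskeletal gene of active neurons, with 0.16 to 1.07 TPM. *Nr4a1* (chromosome 15, 101254269 to 101274795, forward strand), an orphan nuclear receptor, held 85.3, 69.99 and 10 TPM in the wild type, 24.3, 21.5 and 11.0 TPM in heterozygotes and 9.41, 8.95 and 9.90 TPM in homozygotes. Here heterozygous replicate 2 was also raised over replicate 3. *Nr4a2*, at 1.2 to 2.19 TPM, and *Nr4a3*, at 0.35 to 2.79 TPM, were low throughout.

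The Krüppel-like factors were also higher in wild-type replicates 1 and 2 than in replicate 3, by 2.17 to 3.87 times in replicate 1. *Klf2*, which in endothelium responds to blood flow, held 76.2, 43.8 and 19.7 TPM in the wild type, 45.1, 23.6 and 24.5 TPM in heterozygotes and 26.4, 21.97 and 26.7 TPM in homozygotes. *Klf4* held 19.9, 19.1 and 7.67 TPM in the wild type, 11.9, 9.15 and 10.9 TPM in heterozygotes and 9.97, 11.4 and 6.36 TPM in homozygotes. *Klf6* held 56.7, 57.7 and 26.2 TPM in the wild type, 32.1, 23.1 and 27.9 TPM in heterozygotes and 29.0, 30.8 and 22.2 TPM in homozygotes. Wild-type replicate 3 had the lowest *Klf2* value of all 9 libraries.

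The Ier genes, named for their immediate-early response, differed from each other. *Ier2* held 60.0, 48.6 and 21.8 TPM in the wild type, 27.5, 14.8 and 19.9 TPM in heterozygotes and 21.4, 22.6 and 18.0 TPM in homozygotes. *Ier5* held 21.8, 17.4 and 15.1 TPM in the wild type, 15.2, 11.6 and 12.2 TPM in heterozygotes and 13.8, 10.5 and 10.4 TPM in homozygotes. *Ier3* (chromosome 17, 35821684 to 35822923, forward strand), known as a regulator of cell survival, had the most even wild-type values, at 41.7, 42.1 and 41.2 TPM in the wild type, 34.8, 35.5 and 42.0 TPM in heterozygotes and 33.9, 29.1 and 29.4 TPM in homozygotes. Its homozygous values lay below all wild-type and all heterozygous values.

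Among the inhibitors of the response, *Dusp1* (chromosome 17, 26505590 to 26562128, reverse strand), a phosphatase that inactivates MAP kinases, held 129.9, 61.2 and 32.95 TPM in the wild type, 80.6, 34.6 and 32.7 TPM in heterozygotes and 31.3, 23.2 and 19.1 TPM in homozygotes. *Zfp36*, whose protein destabilises AU-rich messenger RNAs, held 43.1, 25.2 and 9.68 TPM in the wild type, 20.7, 10.04 and 8.94 TPM in heterozygotes and 11.0, 11.2 and 11.3 TPM in homozygotes. *Btg2*, an antiproliferative gene linked to deadenylation, held 62.4, 66.5 and 16.2 TPM in the wild type, 20.7, 15.8 and 15.1 TPM in heterozygotes and 15.9, 15.9 and 29.8 TPM in homozygotes. Homozygous replicate 3 was 1.87 times as high as homozygous replicate 1 for *Btg2*, and it also led its group for *Socs3*, an inhibitor of cytokine signalling, and for *Myc*. These were the 3 tested genes in which this library, the one with 508 TPM of thymocyte transcripts, exceeded both other homozygous libraries by over 1.5 times, and the part of those transcripts in these values was not tested. *Socs3* ranged from 2.39 to 8.76 TPM, *Dusp5* from 4.26 to 9.25 TPM and *Dusp2* from 2.86 to 7.81 TPM.

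*Gadd45g* (chromosome 13, 51846678 to 51848468, forward strand), a growth-arrest gene, held 77.5, 60.8 and 40.4 TPM in the wild type, 54.3, 41.3 and 35.9 TPM in heterozygotes and 37.6, 28.2 and 27.1 TPM in homozygotes. Its relative *Gadd45b* held 14.7, 10.9 and 14.1 TPM, then 11.8, 7.78 and 12.6 TPM, and 12.0, 15.3 and 13.3 TPM, so that the genotypes overlapped throughout. *Myc*, a growth-promoting transcription factor, held 14.1, 23.7 and 12.7 TPM in the wild type, 11.2, 11.5 and 12.8 TPM in heterozygotes and 16.1, 14.0 and 26.2 TPM in homozygotes, with no heterozygous value above a homozygous one.

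The matricellular genes, which code for secreted proteins of the CCN family and are known targets of YAP and of serum response factor, included *Ctgf*, which had the highest mean over the 9 libraries (211 TPM) of the 33 genes. *Ctgf* (chromosome 10, 24595442 to 24598683, forward strand) held 668, 550.1 and 119.5 TPM in the wild type, 175, 98.5 and 104 TPM in heterozygotes and 84.2, 39.98 and 58.3 TPM in homozygotes. *Cyr61* (chromosome 3, 145646976 to 145649981, reverse strand) held 279, 179 and 33.8 TPM in the wild type, 87.0, 29.6 and 31.4 TPM in heterozygotes and 29.6, 21.6 and 17.6 TPM in homozygotes. In both genes wild-type replicate 3 was above all homozygous libraries but below heterozygous replicate 1.

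**Figure D2:**
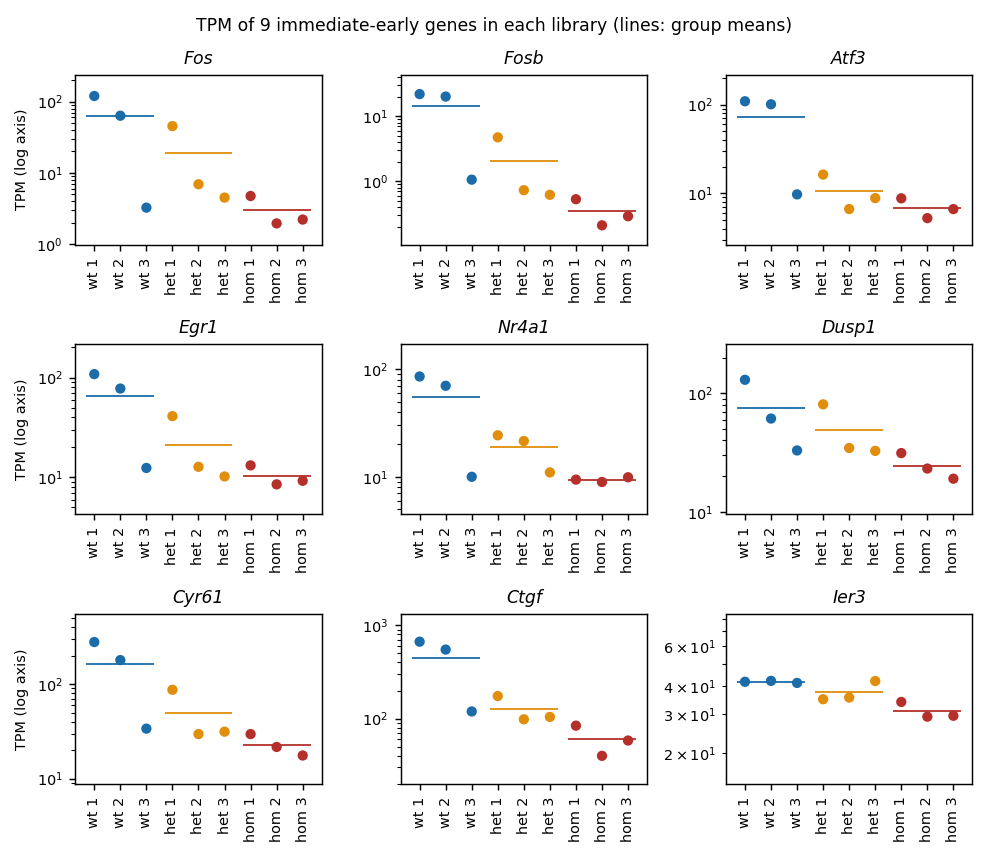
TPM (log axis) of 9 immediate-early genes in each library, as points coloured by genotype (wild type blue, heterozygous orange, homozygous red), with lines at group means. In 8 panels wild-type replicates 1 and 2 are high and replicate 3 lies near the mutants, whereas the wild-type values of *Ier3* are level at 41.2 to 42.1 TPM.

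Counted over the 30 tested genes, wild-type replicate 1 was the highest of the 9 libraries for 19 and wild-type replicate 2 for 6. Over all tested genes these libraries were the highest for 3.26% and 2.02%. Both libraries exceeded wild-type replicate 3 for 28 of the 30, the exceptions being *Fosl1* and *Gadd45b*, compared with 11.0% of all genes, and both were at least 2 times as high as it for 15, compared with 2.5%. Both exceeded all 6 mutant libraries for 19 of the 30, compared with 1.27% of all genes. Wild-type replicate 3 fell inside the range of the 6 mutant libraries for 28, compared with 79.0% of all genes, and above all 3 homozygous libraries for 10, compared with 16.3%. Heterozygous replicate 1 was the highest of the 7 libraries other than wild-type replicates 1 and 2 for 18 of the 30, compared with 7.92% of all genes. Homozygous replicates 2 and 3 had the lowest value of the 9 for 10 and 8 of the 30, compared with 3.25% and 16.3% of all genes.

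Homozygous hearts were set against wild-type hearts to ask whether transcript levels differed with the mutation. Of the 30 genes, 25 had a log2 change below 0 and the median was −0.68 on the log2(TPM + 1) scale, compared with 0.23 over all genes. None of the 30 passed an adjusted p of 0.05 (limma, Benjamini-Hochberg over 13682 genes), where 0.146% of all genes were called lower (20) and 0.19% higher (26), or 201 lower and 39 higher after median-ratio scaling and 59 lower and 12 higher after quantile normalization. At an unadjusted p under 0.05, 18 of the 30 were lower and 0 higher, compared with 2.16% and 22.9% of all genes. That count of 18 was 8 without wild-type replicate 1, 11 without wild-type replicate 2 or homozygous replicate 3, and 23 without wild-type replicate 3. It was 6 without wild-type replicate 1, heterozygous replicate 1 and homozygous replicate 3, the libraries with the most transcripts of other organs. In these fits 262, 251, 264, 285 and 242 of the 13682 genes were lower at this p, in the same order, and 295 with all libraries. In 10 of the 30 the homozygous values lay below all wild-type values without overlap, compared with 2.38% of all genes, and these were *Fosb*, *Jun*, *Atf3*, *Nr4a1*, *Ier3*, *Ier5*, *Dusp1*, *Gadd45g*, *Cyr61* and *Ctgf*.

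The changes furthest from 0 were those of AP-1, Egr, Nr4a and matricellular genes. For *Fos* the log2 change was −3.08 (SE 1.11, limma adjusted p 0.143), and *Fosb* of −2.91 (SE 0.82, limma adjusted p 0.112). *Atf3* had −2.67 (SE 0.73, limma adjusted p 0.110), *Ctgf* −2.58 (SE 0.55, limma adjusted p 0.0839) and *Cyr61* −2.37 (SE 0.66, limma adjusted p 0.112). *Egr1* and *Nr4a1* had −2.13 (SE 0.70) and −1.97 (SE 0.63), with limma adjusted p of 0.131 and 0.126. These standard errors include the gap between wild-type replicate 3 and the other wild-type libraries. By contrast *Ier3* had a small change, −0.43, with a small error (SE 0.12, limma adjusted p 0.107). *Dusp1* (−1.38), *Junb* (−1.37), *Btg2* (−1.02), *Jun* (−0.98), *Ier2* (−0.93), *Zfp36* (−0.92) and *Gadd45g* (−0.89) had intermediate changes on the same scale, with limma adjusted p between 0.107 and 0.219. The 5 genes with a change above 0 were *Fosl1* (0.37), *Dusp2* (0.31), *Myc* (0.15), *Nr4a2* (0.04) and *Gadd45b* (0.03). After median-ratio scaling, which moved the median of all genes from 0.23 to 0.01, those of *Myc*, *Nr4a2* and *Gadd45b* were −0.09, −0.12 and −0.20, and the median of the 30 was −0.93. With that scaling *Ier3* alone among the 30 was called (adjusted p under 0.05, with 1.47% of all genes called lower), as it was after quantile normalization (0.431%).

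**Figure D3:**
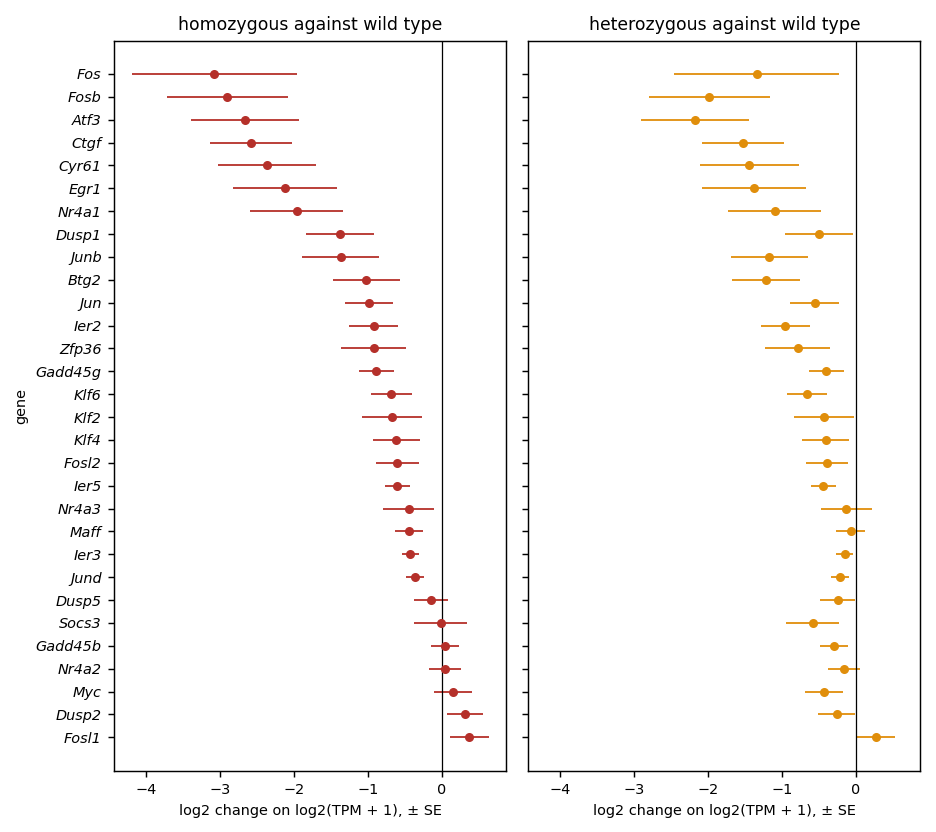
Log2 change (points) and standard error (bars) of the 30 tested genes on the log2(TPM + 1) scale, homozygous against wild type (left) and heterozygous against wild type (right), in the same gene order. Most points lie left of 0, with medians of −0.68 and −0.47, and the bars are longest for *Fos*, *Fosb* and *Atf3*.

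The count of called genes depended on wild-type replicate 3. Without it, 22 of the 30 were called lower in homozygous hearts and the median change was −1.10, compared with 1.02% of all genes called lower. Without wild-type replicate 1 or 2, none was called and the medians were −0.56 and −0.62. *Fos* had a log2 change of −2.13 without wild-type replicate 1, −2.58 without replicate 2 and −4.54 without replicate 3. *Ctgf* ran from −2.12 to −3.36 in the same way, whereas *Ier3* stayed between −0.42 and −0.44. A fit that estimates a weight for each library (arrayWeights) gave homozygous replicate 3 the lowest weight, 0.26, and wild-type replicate 3 the next, 0.36, with 0.81 to 2.303 for the other 7 libraries, and called 20 of the 30 lower, compared with 1.88% of all genes. Without wild-type replicate 1, heterozygous replicate 1 and homozygous replicate 3, the libraries with the most airway, liver and thymocyte transcripts, none was called and the median was −0.44. The labels give no reason to leave out any library.

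**Figure D4:**
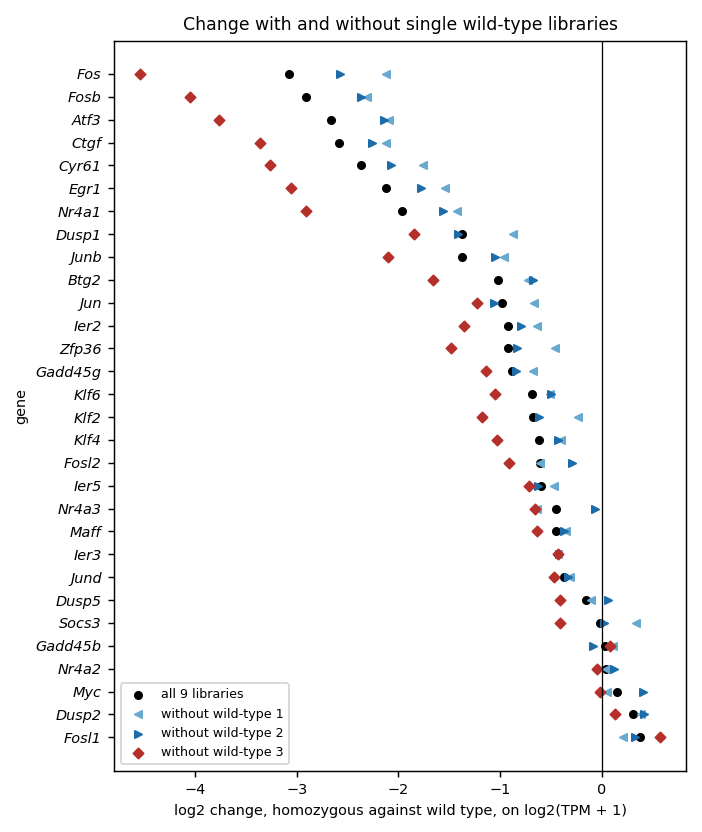
Log2 change of the 30 tested genes, homozygous against wild type, on the log2(TPM + 1) scale, in the fit of all 9 libraries (circles) and without each wild-type library in turn (triangles and diamonds). Leaving out wild-type replicate 3 (diamonds) moves *Fos* to −4.54 and *Atf3* to −3.77, whereas the 4 symbols of *Ier3* nearly coincide.

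In heterozygous against wild-type hearts the median had the same sign and was smaller. Of the 30 genes, 29 had a log2 change below 0, with *Fosl1* as the exception, and their median was −0.47, compared with 0.15 over all genes. None passed the adjusted threshold, where 0.0146% of all genes were called lower and 0.0% higher. At an unadjusted p under 0.05, 8 were lower (*Atf3*, *Btg2*, *Ctgf*, *Fosb*, *Ier2*, *Ier5*, *Junb*, *Klf6*) and 0 higher, compared with 0.577% and 6.29% of all genes. That count of 8 was 0 without wild-type replicate 1 or 2, 21 without wild-type replicate 3, 12 without heterozygous replicate 1 and 1 without heterozygous replicate 2. It was 2 without heterozygous replicate 3 or without the 3 libraries with transcripts of other organs. In these fits 63, 74, 130, 84, 42, 76 and 105 of the 13682 genes were lower at this p, in the same order, and 79 with all libraries. *Atf3* had the largest change, −2.18 (SE 0.73, limma adjusted p 0.672), followed by *Fosb* with −1.99 (SE 0.82) and *Ctgf* with −1.53 (SE 0.55). *Jund* was the one gene without overlap between these groups, compared with 1.03% of all genes, at 87.0 to 91.3 TPM in heterozygotes and 91.4 to 114 TPM in wild-type hearts. Without wild-type replicate 3 *Atf3* alone was called (limma adjusted p 0.0195), compared with 0.0365% of all genes called lower. This comparison shares its wild-type libraries with the one before, so the likeness of their values is not independent.

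Homozygous and heterozygous hearts were compared directly as well. The median change of the 30 genes was −0.21, compared with 0.08 over all genes, with 21 below 0. None passed the adjusted threshold, where 0.0365% of all genes were called lower and 0.00731% higher. At an unadjusted p under 0.05, *Ier3* was lower (−0.27, SE 0.12) and *Myc* (0.58, SE 0.25) and *Dusp2* (0.58, SE 0.25) were higher, compared with 2.32% and 4.83% of all genes, with limma adjusted p of 0.698 for each. With single libraries left out, 0 to 7 were lower at this p, compared with 225 to 357 of all 13682 genes. The 7 were without wild-type replicate 3, where 354 of all genes were lower. From 0 to 2 of the 30 were higher, compared with 297 to 1155 of all genes. None was higher without wild-type replicate 1, homozygous replicate 3 or any heterozygous library. Without homozygous replicate 3, the library with thymocyte transcripts, *Myc* had 0.32 and *Dusp2* 0.37. In 6 of the 30 (*Fosb*, *Nr4a1*, *Ier3*, *Dusp1*, *Cyr61*, *Ctgf*) homozygous values lay below all heterozygous values, compared with 3.85% of all genes. The median depended on heterozygous replicate 1, being −0.11 without it, and it was 0.04 with *Xist* presence as a covariate and 0.01 without the 3 libraries with transcripts of other organs.

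The genes that carry the signal to the immediate-early promoters were also examined. The list held 31 genes for serum response factor, its Elk and Mkl cofactors, CREB-family factors, MAP kinases and their kinases, YAP and Mef2 factors, and all 31 were tested. None was called in the 3 comparisons (limma adjusted p under 0.05). In homozygous against wild type their median change was 0.27, close to that of all genes, with 2 below 0, and at an unadjusted p under 0.05, 7 were higher and 0 lower, compared with 22.9% and 2.16% of all genes. None of the 31 was higher in both wild-type replicates 1 and 2 than in replicate 3, compared with 11.0% of all genes, and 28 were lower in both, compared with 70.6%.

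Another list held 34 early response genes outside the 33, of which 31 were tested and 0 were called in any comparison. Their median change was −0.32 in homozygous against wild type, with 24 below 0, and −0.23 in heterozygous against wild type, with 26 below 0. At an unadjusted p under 0.05, 8 were lower and 1 was higher in homozygous hearts, compared with 2.16% and 22.9% of all genes. Wild-type replicates 1 and 2 exceeded replicate 3 for 22 of the 31, compared with 11.0% of all genes, and all 6 mutant libraries for 15, compared with 1.27%. The examples that follow were chosen after their values were seen. *Csrnp1*, a nuclear protein gene induced by AXIN1, held 21.7, 23.5 and 3.94 TPM in wild-type hearts and 3.37 to 8.34 TPM in mutant hearts. *Sgk1*, a kinase gene induced by serum and glucocorticoids, held 65.3, 69.4 and 29.8 TPM in wild-type hearts and 20.7 to 31.5 TPM in mutant hearts. *Per1*, a clock gene that is also an early response gene, held 44.4, 56.6 and 14.2 TPM in wild-type hearts and 20.6 to 32.3 TPM in mutant hearts, so that wild-type replicate 3 was the lowest of all libraries.

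Lists for other kinds of response gave smaller values and no call in any comparison. In homozygous against wild type the median change was 0.00 for 10 heat shock genes, −0.10 for 8 glucocorticoid-induced genes and 0.16 for 13 hypoxia-induced genes. Summed heat shock transcripts were 2697 to 3328 TPM over the 9 libraries, a ratio of 1.23. Abundant genes such as *Hspa8*, at 744 to 1011 TPM, carried this sum, so it says little about the low genes. *Hspa1a* ran from 1.71 TPM in wild-type replicate 3 to 4.1 TPM in heterozygous replicate 1. *Hspa1b* ran from 2.7 TPM in heterozygous replicate 2 to 4.24 TPM in heterozygous replicate 1. Of the heat shock and hypoxia-induced genes, 0 were at least 2 times as high in both wild-type replicates 1 and 2 as in replicate 3. Among all tested genes this share was 2.5%, so that 0 in lists this short is near it. *Sgk1* and *Per1* belong to the glucocorticoid list too and were its 2 genes with this ratio.

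**Figure D5:**
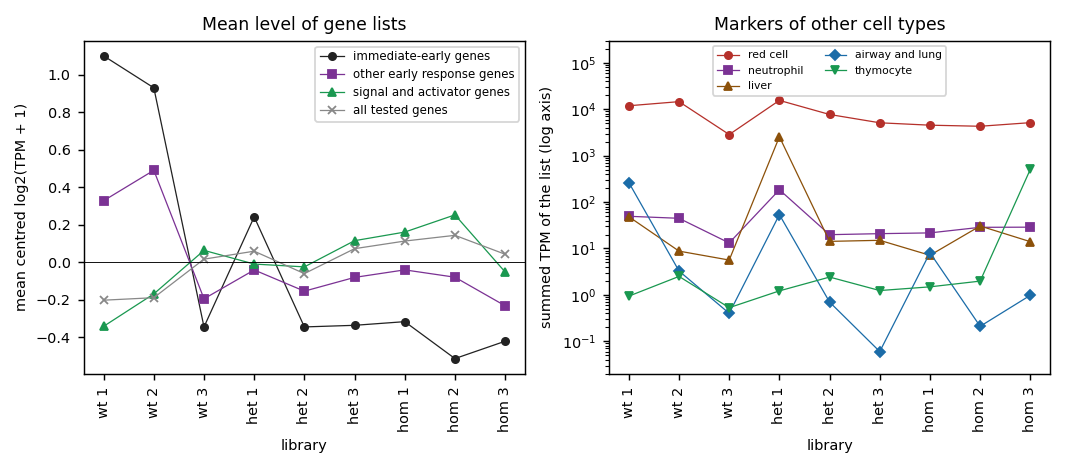
Left, mean centred log2(TPM + 1) per library for the immediate-early genes, the other early response genes, the signal and activator genes and all tested genes. Right, summed TPM (log axis) of markers of 5 other cell types per library, in which red cell markers are highest in wild-type replicates 1 and 2 and heterozygous replicate 1, the libraries with the highest immediate-early means.

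Markers of blood cells moved with the group. The summed level of 7 red cell genes, among them the haemoglobin genes *Hba-a1* and *Hbb-bs*, was 11908, 14604 and 2853 TPM in the wild type, 15542, 7723 and 5114 TPM in heterozygotes and 4541, 4305 and 5148 TPM in homozygotes. The 3 libraries with the highest sums were the 3 with the highest mean of the immediate-early genes, and wild-type replicate 3 had the lowest sum of all. The summed level of 7 neutrophil genes, led by *S100a9* and *S100a8*, was 49.4, 44.7 and 13.2 TPM in the wild type, 184 TPM in heterozygous replicate 1 and 19.8 to 28.8 TPM in the other mutant libraries. The part of blood cells in the result was not tested. Macrophage genes summed to between 46.3 and 89.5 TPM and endothelial genes to between 382 and 647 TPM, and the endothelial sum was lowest in wild-type replicate 1. Fibroblast genes summed to between 856 and 1928 TPM. The sum of 6 smooth muscle genes was 555, 622 and 666 TPM in the wild type, 620.3, 437 and 650.1 TPM in heterozygotes and 486, 278 and 375 TPM in homozygotes. Homozygous sums lay below all wild-type sums, but *Acta2* made up most of each. *Acta2* was at 444 to 547 TPM in the wild type and 196 to 366 TPM in homozygotes. Only *Acta2* and *Cnn1* lay lower in homozygotes without overlap. *Tagln* and *Lmod1* were higher in homozygous replicate 1 than in any wild-type library. The part of smooth muscle genes in the result was not tested. Wild-type replicate 2, with a mean of 0.93 for the immediate-early genes, had an airway sum of 3.27 TPM, a liver sum of 8.77 TPM and a thymocyte sum of 2.5 TPM.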

How the data were processed

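Hearts of embryonic day 18.5 mouse embryos had been sequenced after mRNA capture (3 libraries in each of 3 genotypes). Per the labels, the authors used Trim Galore to trim reads, aligned them to mm10 (STAR) and quantified genes (RSEM), and deposited TPM values per gene and library. Neither the annotation release nor strandedness is given in the sources used here. The authors' own tests used DESeq2, which takes counts and was left out here. Libraries were grouped by their labels. Nothing says that they came from separate litters, so p-values measure the spread between these libraries only. Of 24597 rows, 26 symbols turned into dates were left out (at most 0.0921% of the TPM).

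The 13682 genes that averaged 1 TPM or more in the 9 libraries were fitted as log2(TPM + 1) in limma (v3.58.1, R v4.3.3), with 3 genotypes, no covariate and a trended eBayes step. P-values are two-sided and Benjamini-Hochberg adjusted over all genes tested, and a call means an adjusted p under 0.05. A fold change on this scale understates the change of low genes. The procedure was tested on simulated data. The genes and lists were chosen with earlier results of these data known. The 22 genes averaging 10 TPM or more are given in every library, the others by their range, and exceptions are named. Coordinates are from GENCODE M21 (GRCm38), and promoters from RefSeq (GRCm38.p6), where 26 of 33 genes had a window. Without strand, reads of *Fosl1*, *Jun*, *Junb*, *Jund*, *Atf3*, *Dusp1*, *Dusp5*, *Zfp36* and *Ctgf* cannot be told apart from those of genes on the opposite strand. *Dusp1* also overlaps AC122252.4 and AC122252.1 on its own strand. The promoter stretch shown for *Dusp1* lies inside its GENCODE interval, because it precedes a RefSeq start within that interval. At most 3.32% of the 31-base words of any of the 33 genes occur in other genes.

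Alternatives were pseudocounts of 0.1 and 5, other filters, scalings and eBayes options, arrayWeights, a replicate block, *Xist* presence as a covariate, only the 2 groups compared, and each library left out. The fit without 3 libraries with transcripts of other organs was added after seeing the data.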

Additional observations from a re-analysis of the deposited data

How the results depend on the processing

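The number of the 30 genes called in homozygous against wild-type hearts was 0 with all libraries, 1 (*Ier3*) after median-ratio scaling or quantile normalization and 20 with arrayWeights. Leaving out single libraries gave 0 to 22, the 22 without wild-type replicate 3. In heterozygous against wild type it was 0 in all settings apart from that without wild-type replicate 3, with 1 (*Atf3*), and the range over left-out libraries was 0 to 1. In homozygous against heterozygous it was 0 in every setting. The median change kept its sign in homozygous against wild type, between −1.10 and −0.44, and in heterozygous against wild type, between −0.88 and −0.31. In homozygous against heterozygous it was −0.21, but 0.0425 with *Xist* presence as a covariate and 0.0059 without the 3 libraries with transcripts of other organs. The cause of these changes was not tested. The library means stayed between 0.94 and 1.33 in wild-type replicate 1, between 0.75 and 1.12 in replicate 2 and between −0.38 and −0.28 in replicate 3.

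Among single genes in homozygous against wild type, *Gadd45b* (0.03) was −0.20 after median-ratio scaling, −0.24 after quantile normalization, −0.0166 when rescaled without haemoglobin and mitochondrially encoded genes, and −0.0888 to 0.11 with single libraries left out. *Myc* (0.15) was −0.0929 after median-ratio scaling, −0.0891 after quantile normalization, −0.26 with arrayWeights, −0.20 without the 3 libraries with transcripts of other organs, and −0.11 to 0.41 with single libraries left out. Over all genes, 46 were called in homozygous against wild type (26 higher, 20 lower), but 240 after median-ratio scaling (39 higher, 201 lower), 71 after quantile normalization (12 higher, 59 lower), 5068 with arrayWeights (4811 higher, 257 lower), 2170 without wild-type replicate 3 (2030 higher, 140 lower), 247 without homozygous replicate 3 (218 higher, 29 lower) and 13 without wild-type replicate 2 (4 higher, 9 lower).

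With the replicate number as a block, 0 of the 30 were called in each comparison. The medians were −0.68, −0.47 and −0.21 as without it, which the balanced layout fixes in advance. At an unadjusted p under 0.05 (limma), 20, 13 and 6 of the 30 were lower with the block and 0 were higher. Over all 13682 genes, 292, 96 and 312 were lower. Without the block, 18, 8 and 1 of the 30 were lower, and 295, 79 and 317 of all genes. Over all genes the block gave 17, 1 and 1 calls. The numbers were not read as pairs, because deviations of libraries with the same number correlated at −0.03 to 0.36 and exceeded 0.1 in 2 of 9 pairs. Both of these pairs joined wild type and heterozygous, at 0.36 for replicate 1 and 0.30 for replicate 3, with 0.06 for replicate 2. Between these groups, libraries with unlike numbers correlated at −0.31 to 0.12. The labels name no batch, and a batch shared by these groups was not tested. Without read counts the depth of each library is unknown, and genes near 1 TPM are the least certain.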
